A study of Mus musculus with 8 samples.

Results

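The cytosolic ribosomal protein genes were described across 8 Affymetrix mouse arrays of 2 T cell leukemia lines. A probe set, the group of probes that reads one transcript, was a member where the platform annotation gave it a single symbol of a ribosomal protein of the large (Rpl) or small (Rps) subunit. Pseudogenes, kinases of ribosomal protein S6 and Rps27l were left out. The members were 45 of the 18193 genes named on the array, read by 97 of its 45037 probe sets, and 24 of these genes belong to the large and 21 to the small subunit. Of 80 protein coding genes that fit the rule in the mouse annotation, 44 had a member probe set, 28 were named only on probe sets with several symbols and 8 on neither. The 45th member gene, Rps4l, was not among the 80. Rpl5 and Rpl10, whose human counterparts are mutated in T cell acute lymphoblastic leukemia, were named only on probe sets with several symbols, and Rpl10l on no probe set, so none of these is described.

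The ribosome is built from ribosomal RNA and about one molecule each of the proteins of its large and small subunits, and proliferating cells make these proteins in matched amounts. Their mRNAs are among the most abundant of the cell and begin with a cytosine followed by a run of pyrimidines, the TOP motif, through which mTORC1 and Larp1 adjust their translation together. Free Rpl5 and Rpl11 bind Mdm2 and so link ribosome assembly to p53. Rpl22 is known for its role in the development of alpha beta T cells and as a tumor suppressor in T cell leukemia.

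Both lines carried no functional E2a, the gene of the E proteins E12 and E47, and came from leukemias of FVB/NJ mice. The E2a-/- line had unmodified Lef1, and the E2a-/-Lef1F/F line, here Lef1F/F, had loxP sites around the exons for the DNA binding domain of LEF1. Each line was infected with the retrovirus MigR1, which produces GFP, or with MigR1-Cre, which also produces the recombinase Cre, and GFP+ cells were sorted for RNA 72 h after infection. There were 4 groups of 2 arrays, named E2a-/- MigR1, E2a-/- MigR1-Cre, Lef1F/F MigR1 and Lef1F/F MigR1-Cre. With 1 line for each genotype, an effect of the genotype and one of the line cannot be told apart. The labels do not say whether the arrays of a group came from different cultures, so the p-values describe the spread from array to array, which may be technical. Groups followed the sample titles; a separate label field gives another vector for 4 of the arrays.

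Array medians lay between 88.9 and 91.0 intensity units. The targeted gene followed the titles in the Lef1F/F line, where Lef1 averaged 6522 in Lef1F/F MigR1 and 1790 in Lef1F/F MigR1-Cre (log2 difference -1.87 ± 0.09 SE, limma adjusted p = 0.000703), against 3313 and 3212 in the E2a-/- line. Without loxP sites, Lef1 is no check of the vector in the E2a-/- line. Of 9 T cell markers, Cd3g, Cd3d, Thy1 and Notch1 averaged between 4935 and 9083 units. Bcl11b averaged 4696, Ptcra 2131, Cd8a 1059, Cd3e 904 and Cd4 152. Cd8a averaged 243 in Lef1F/F MigR1 and 227 in Lef1F/F MigR1-Cre. The 4 B cell and 5 myeloid markers measured averaged between 61.7 and 127. Of erythroid, stromal and endothelial markers, Epor averaged 234 and Pecam1 243, both above Cd4, and the others between 48.6 and 103. Between the lines, 4 of 9 T cell markers passed as higher and 2 as lower in Lef1F/F MigR1 arrays, and Cd8a had the largest difference (-2.97). Of 3 erythroid markers Gata1, at 103 units, passed as lower (-0.29), and no B cell, myeloid or stromal marker passed. The part of these differences in the comparison of the lines was not tested. Over all probe sets, Lef1F/F arrays with the same number correlated better (r = 0.998 for both numbers) than the 2 arrays of one vector (r = 0.994 for both vectors), although the labels pair no arrays.

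The members stood near the top of the intensity scale. Their median intensity was 14539 units, the 99.7th percentile of all probe sets. Of the 97, 58 averaged at least 10000 units, a level reached by 267 probe sets of the whole array. A further 23 lay between 181 units, 2 times the median of all probe sets, and 10000, and 16 lay below 181 units and are called dim. Intensity depends on the probes as well as on the transcript, and differences between probe sets are no order of expression. The highest averages were 23146 for Rplp2, a protein of the ribosomal stalk, 22687 for a probe set of Rps29 and 21750 for a probe set of Rpl37a. The lowest were 54.9 for a probe set of Rpl27a, 58.1 for Rpl39l and 58.4 for Rps16. All probe sets of 5 genes were dim: Rpl39, Rps16 and the tissue-restricted paralogues Rpl39l, Rpl3l and Rps4l.

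The start of the gene was examined for 39 member genes with an entry among the RefSeq promoter windows of assembly GRCm38.p6. The windows below, of 30 bases around the annotated start, belong to genes picked for display from those described in the comparisons. Rps24, Rpl12 and Rpl22 had no probe set that passed there. Rpl41, Rps10, Rpl14 and Rpl3l had one that did and are not displayed. Capitals mark the longest run of C and T, printed on the strand of the gene.
Rps9, chr7:3704026-3704055, plus strand: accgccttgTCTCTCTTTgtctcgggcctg
Rpl13a, chr7:45128731-45128760, minus strand: gaaaccctgcgacaagaCCTCCTCCTTTCC
Rps24, chr14:24490663-24490692, plus strand: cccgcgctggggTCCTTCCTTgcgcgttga
Rpl12, chr2:32961697-32961726, plus strand: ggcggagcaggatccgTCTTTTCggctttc
Rps25, chr9:44407699-44407728, plus strand: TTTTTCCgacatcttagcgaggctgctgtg
Rpl22, chr4:152325711-152325740, plus strand: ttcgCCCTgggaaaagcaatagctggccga
A run of at least 8 pyrimidines, read on the strand of the gene, was present in this 30-base stretch in 17 of 46 member windows (37%) and in 12% of 32851 windows of all genes. Over the whole window, 250 bases before to 50 after the start and both strands, the Ets-like letters CCGGAAGT were found in 9 member windows (19.6%, 3.89% of all). AAGATGGCG was found in 2 (4.35%, 1.4% of all), and TATAAA in 5 (10.9%, 13.6% of all). A match is a description of the sequence and not a binding site, and the annotated start may not be the base at which transcription begins.

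The study asked what the loss of LEF1 does to established leukemias, and the comparison of MigR1-Cre with MigR1 in the Lef1F/F line addresses it. No ribosomal protein probe set passed the test there: 0 of 97 had a limma adjusted p under 0.05, where 0.167% of all probe sets did. In the E2a-/- line, which has no loxP sites, 0 of 97 passed and 0% of all probe sets did. The difference between both effects gave 0 of 97 members and 0.0200% of all. At an unadjusted limma p under 0.05, 1, 2 and 0 members passed in these comparisons (1.03%, 2.06% and 0%). Of all probe sets 2100, 836 and 1453 did (4.66%, 1.86% and 3.23%).

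The members' effects lay close to 0 on the log2 scale. Their median was 0.002 in the Lef1F/F line and -0.003 in the E2a-/- line (0.002 and 0.001 over all probe sets), and 46 and 55 of 97 were below 0. The median size of the effect, taken without its sign, was 0.02 in both lines, against 0.05 over all probe sets in both. Most of the array is dimmer than the members. Among probe sets of at least 10000 units this size was 0.018 and 0.014 for the 58 members. For the 209 other probe sets as bright it was 0.023 and 0.021. The effects ranged from -0.13 to 0.18 in the Lef1F/F line and from -0.25 to 0.25 in the E2a-/- line, and no member reached a change of 1.5-fold in either. The median standard error was 0.07, so smaller changes than these could not be seen gene by gene with 2 arrays a group.

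The members with the smallest p were mostly dim. In the Lef1F/F line these were the dim Rpsa probe set (0.18 ± 0.07, unadjusted p = 0.0354 by limma), Rps16 (-0.10 ± 0.06), Rps4l (0.09 ± 0.07) and a probe set of Rpl41 (-0.13 ± 0.10). In the E2a-/- line they were Rpl3l (0.16 ± 0.06, unadjusted p = 0.0264 by limma), Rps4l (0.18 ± 0.07, 0.0274), a probe set of Rpl13a (-0.15 ± 0.07) and one of Rps9 (-0.25 ± 0.15). For the difference they were the dim Rpsa probe set (0.19), one of Rpl41 (-0.25), Rpl3l (-0.14) and one of Rps20 (0.12). All of their adjusted p-values were 1.00 after rounding. Of the bright genes, Rplp0, the stalk protein often used as a reference transcript, read 20627 and 20680 in Lef1F/F MigR1 and 20848 and 21194 in Lef1F/F MigR1-Cre. Rpl11, the partner of Mdm2, read 16193 and 15803 in Lef1F/F MigR1 and 16012 and 16104 in Lef1F/F MigR1-Cre. The arrays of both vectors overlapped for Rpl11. For Rplp0 they did not, but the log2 difference of 0.03 ± 0.05 did not pass.

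**Figure D1:**
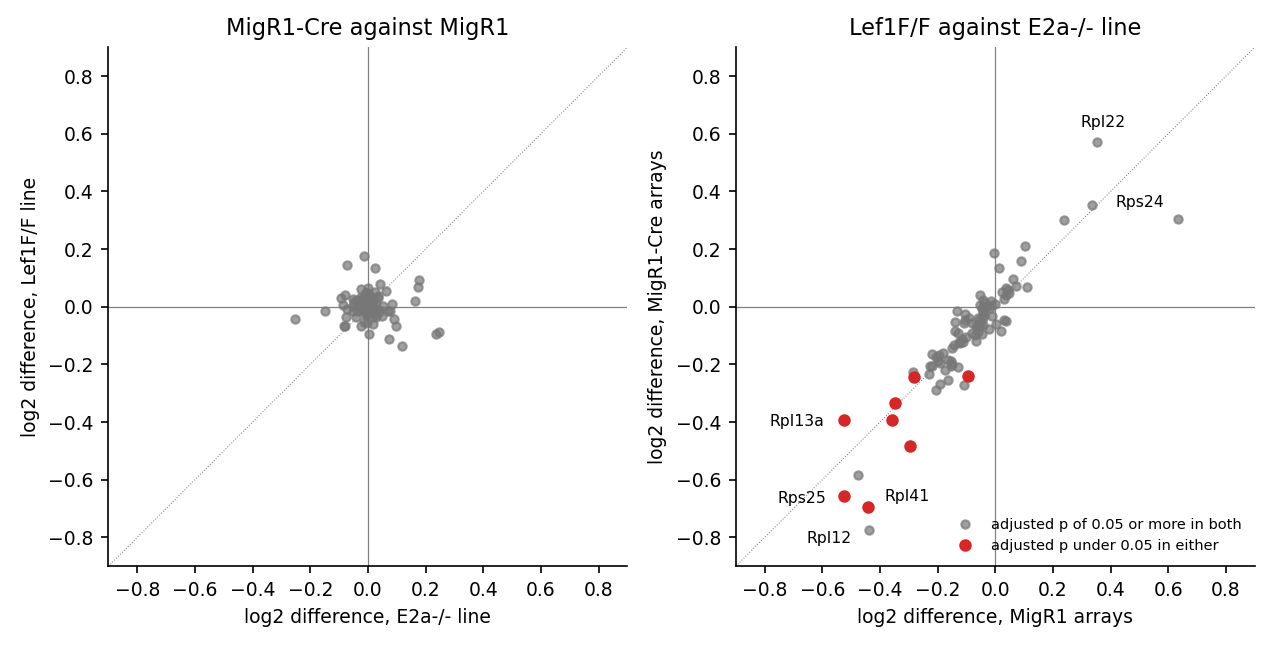
Log2 differences of member probe sets. Left, MigR1-Cre against MigR1 in the E2a-/- line (x axis) and in the Lef1F/F line (y axis), where all 97 points lie between -0.25 and 0.25 and none passed the test. Right, the Lef1F/F minus the E2a-/- line with MigR1 (x axis) and with MigR1-Cre (y axis), where 68 probe sets are below 0 on both axes; red points passed in at least 1 of these comparisons, and the Rps9 probe set at -4.22 and -4.01 lies outside the axes.

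Between the lines, the ribosomal proteins were slightly lower in the Lef1F/F line, and single probe sets stood out against this small shift. The comparison was made on separate arrays for MigR1 and for MigR1-Cre. The median log2 difference of the members, Lef1F/F minus E2a-/-, was -0.07 with MigR1 and -0.07 with MigR1-Cre, against -0.01 and -0.004 over all probe sets. With MigR1, 77 of 97 members were below 0 (79.4%, 53.4% of all), and with MigR1-Cre 72 were (74.2%, 51.3% of all). Members below 0 in both numbered 68 and members above 0 in both 16, while 13 had opposite signs. Over the whole array, 37.4% of probe sets were below 0 in both and 32.7% above 0 in both. RMA makes the intensity distributions of the arrays alike, so these differences are relative to the other transcripts. In sorted bulk RNA, fewer cells of a type and less RNA per cell cannot be told apart.

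The same shift was seen array by array. For each member the log2 intensity was set against its mean over the 8 arrays, and the median over the members was taken. It was 0.039 and 0.030 in the E2a-/- MigR1 arrays and 0.040 and 0.032 in the E2a-/- MigR1-Cre arrays. It was -0.021 and -0.062 in the Lef1F/F MigR1 arrays and -0.014 and -0.052 in the Lef1F/F MigR1-Cre arrays. All 4 E2a-/- arrays were above all 4 Lef1F/F arrays, and the same median over all probe sets stayed between -0.008 and 0.007. In both vectors, Lef1F/F array 2 was lower than Lef1F/F array 1. The lines did not overlap in 46 members that were lower in all 4 Lef1F/F arrays (13.6% of all probe sets) and in 5 that were higher in all 4 (11.5% of all).

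**Figure D2:**
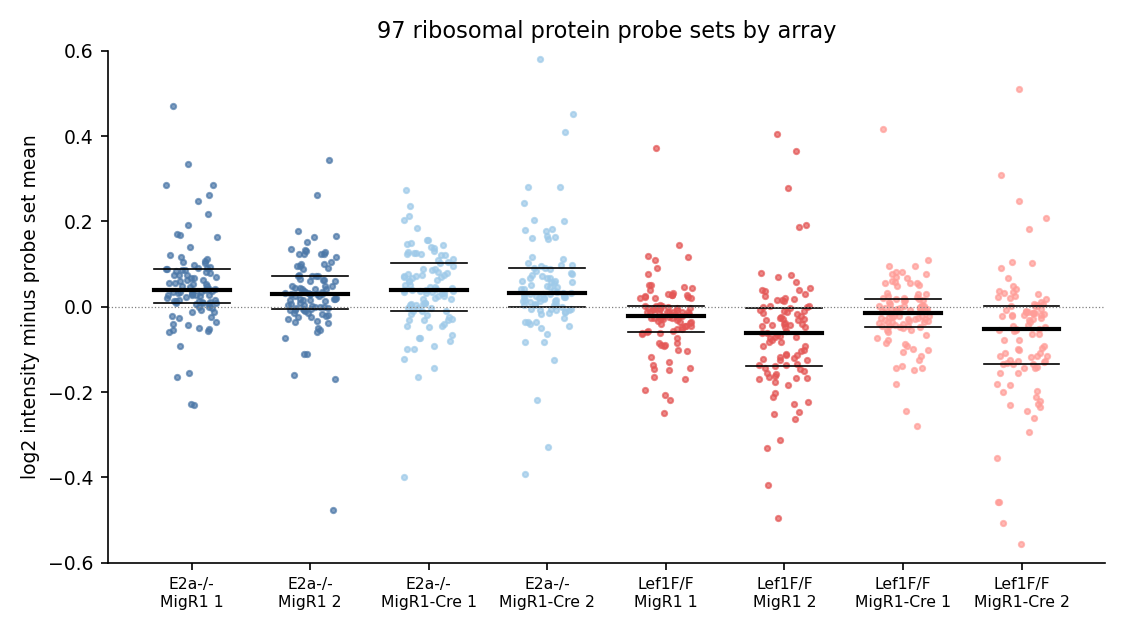
Log2 intensity of the 97 member probe sets in each array, minus the mean of the probe set over the 8 arrays (y axis). Points are probe sets, thick lines medians and thin lines quartiles; 9 points lie beyond the axis. The medians of the E2a-/- arrays lie between 0.030 and 0.040 and those of the Lef1F/F arrays between -0.062 and -0.014.

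The 2 arrays of a Lef1F/F group also differed in the members, with array 1 above array 2 by a median of 0.05 on the log2 scale with MigR1 and 0.04 with MigR1-Cre. Array 1 exceeded array 2 in 68 of 97 members with MigR1 (49.17% of all probe sets) and in 64 with MigR1-Cre (50.45% of all). It did so in 53 members with both vectors (31.5% of all probe sets). In the E2a-/- line array 1 exceeded array 2 in 24 members with both vectors (23.9% of all). The median line difference was -0.06 without Lef1F/F MigR1 array 2 and -0.09 without array 1. With MigR1-Cre it was -0.05 without array 2 and -0.08 without array 1. The direction was the same whichever of the 8 arrays was left out.

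Few members passed the test between the lines. With MigR1, 6 of 97 did (6.19%), all lower in the Lef1F/F line, where 10.7% of all probe sets passed and 4.67% passed as lower. With MigR1-Cre, 8 did (8.25%), again all lower, where 12.0% of all passed and 6.02% passed as lower. In these fits the share of members called was below that of the whole table for both directions together and above it for lower probe sets alone; the first order is not kept by every alternative. Of the 58 members of at least 10000 units, 10 and 11 had an unadjusted limma p under 0.05, where 21.9% and 23.6% of all probe sets did. After adjustment 0 of these 58 passed in either comparison by limma, and their median was -0.06 in both. The 209 other probe sets as bright had medians of -0.03 and -0.02, and 6 and 15 of them passed. The 23 members between 181 and 10000 units had medians of -0.22 and -0.23, against -0.02 and -0.02 for the 13606 other probe sets of that range. Of these 23, 5 (21.7%) and 6 (26.1%) passed, against 22.8% and 26.5% of the others. The 16 dim members had a median of -0.06 in both.

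**Figure D3:**
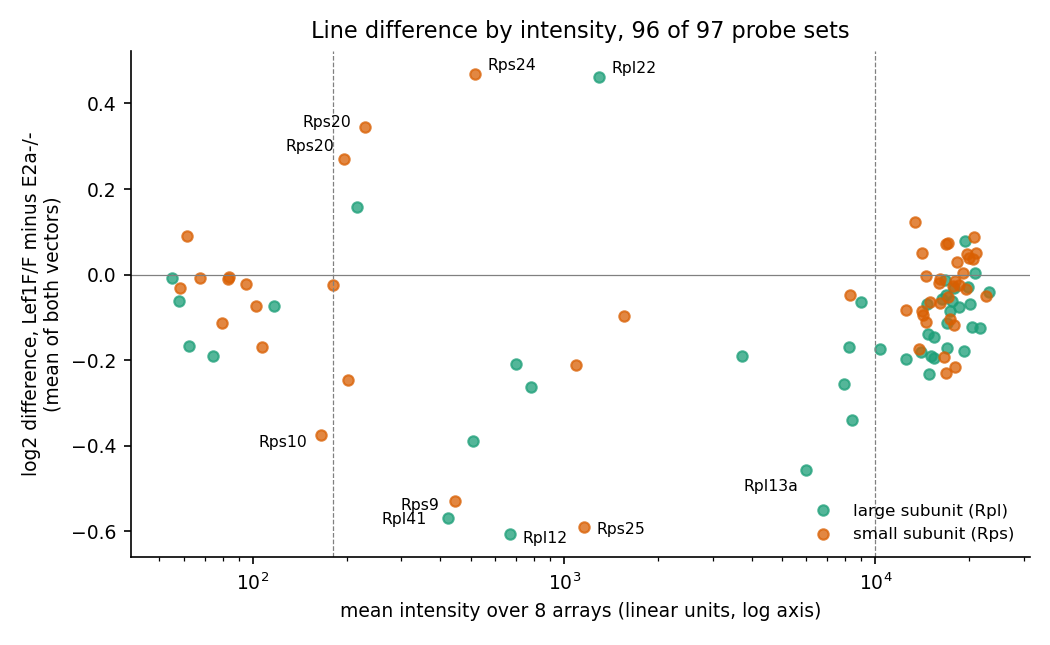
Log2 difference between the lines, averaged over both vectors (y axis), against mean intensity over the 8 arrays on a log axis (x axis). Green points are large subunit and orange points small subunit probe sets; dashed lines mark 2 times the median of all probe sets (181) and 10000, and the Rps9 probe set at -4.11 is not shown. The 58 probe sets of at least 10000 units lie between -0.23 and 0.12, 45 of them below 0, and differences past 0.3 in size come from probe sets below 10000.

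Counted by probe set, the large subunit showed more of the shift than the small subunit. Its 44 probe sets had median differences of -0.12 and -0.13, with 39 and 40 below 0. The 53 small subunit probe sets had medians of -0.04 and -0.03, with 38 and 32 below 0. Genes with many probe sets weigh more in these medians, such as Rpl35 and Rps24 with 6 each. The gap between the subunits was not tested, nor was it taken with 1 value a gene. By gene, 27 of 45 were lower at every probe set in both comparisons, 2 (Rpl4 and Rps20) were higher at every probe set and 16 were mixed. Of the 22 genes with several probe sets, 11 were lower at all of them.

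Of the large subunit, Rpl35, which lies at the exit of the peptide tunnel, differed alike at all of its probe sets: these 6 probe sets, from 74.4 to 17032 units, gave averages between -0.23 and -0.17, and in each of them all 4 Lef1F/F arrays were below all 4 E2a-/- arrays. The brightest Rpl35 probe set read 17748, 18504, 18535 and 17365 in the E2a-/- arrays and 16784, 15849, 15780 and 15691 in the Lef1F/F arrays (-0.15 ± 0.06 and -0.19 ± 0.06, limma adjusted p = 0.211 and 0.107). The 3 probe sets of Rpl27 lay between -0.26 and -0.17, and the 3 of Rpl37a between -0.21 and -0.12. None of these passed the test. Rpl11 was separate between the lines but by little: the E2a-/- arrays read 16516, 16683, 16716 and 16738 and the Lef1F/F arrays 16193, 15803, 16012 and 16104 (-0.05 ± 0.05 and -0.06 ± 0.05). The stalk proteins differed little, with -0.01 and 0.02 for Rplp0 and -0.04 in both comparisons for Rplp2. Rpl4 was above 0 in both (0.06 and 0.10, limma adjusted p = 0.697 and 0.473).

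Rpl13a, a protein of the large subunit that also takes part in the translational control of inflammatory transcripts, had 2 probe sets that passed in both comparisons. The dimmer read 7067 and 7473 in E2a-/- MigR1 and 6828 and 6301 in E2a-/- MigR1-Cre. It read 5148 and 4963 in Lef1F/F MigR1 and 5200 and 4808 in Lef1F/F MigR1-Cre. Every Lef1F/F array was below every E2a-/- array, and the differences were -0.52 ± 0.07 (limma adjusted p = 0.00233) and -0.39 ± 0.07 (0.00939). The next probe set, at 8390 units, gave -0.35 ± 0.07 (limma adjusted p = 0.0164) and -0.33 ± 0.07 (0.0177). The other two, at 15470 and 17660 units, gave -0.15 and -0.14, and -0.05 and -0.07, and did not pass. The size of the Rpl13a difference thus grew as the intensity of the probe set declined.

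Rpl41, which encodes a very short basic protein between the subunits, had the same pattern. Its dimmest probe set read 505, 464, 488 and 566 in the E2a-/- arrays and 368, 345, 350 and 301 in the Lef1F/F arrays. The groups did not overlap, and the differences were -0.44 ± 0.10 with MigR1 (limma adjusted p = 0.0278) and -0.70 ± 0.10 with MigR1-Cre (0.00313). The next, at 508 units, gave -0.30 ± 0.09 (limma adjusted p = 0.0921) and -0.48 ± 0.09 (0.0123). The bright ones, at 19272 and 20410 units, gave -0.15 and -0.21, and -0.13 and -0.12, and did not pass.

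Rpl14 was called in 1 comparison, and there in only 1 of the 8 fits that left out 1 array. Its only probe set read 822, 936, 851 and 814 in the E2a-/- arrays and 734, 710, 707 and 701 in the Lef1F/F arrays. All Lef1F/F arrays were lower, by -0.28 ± 0.07 with MigR1 (limma adjusted p = 0.0486) and -0.24 ± 0.07 with MigR1-Cre (0.0784). Rpl12, part of the base of the stalk, had a wide spread in the E2a-/- line. It read 896, 599, 745 and 1016 there and 561, 521, 587 and 440 in the Lef1F/F line. The arrays did not overlap, but the differences of -0.44 ± 0.22 (limma adjusted p = 0.305) and -0.78 ± 0.22 (0.0598) did not pass.

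Rpl22 gave opposite directions at different probe sets. The probe sets at 17327 and 10349 units were lower in all Lef1F/F arrays (-0.08 and -0.09, and -0.16 and -0.18), and did not pass. The dimmest read 1082, 1137, 1150 and 967 in the E2a-/- arrays and 1194, 1681, 1357 and 1809 in the Lef1F/F arrays. Here every Lef1F/F array was higher, by 0.35 ± 0.18 (limma adjusted p = 0.323) and 0.57 ± 0.18 (0.0894), and neither passed. The direction for Rpl22 therefore depends on the probe set.

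Of the small subunit, Rps9 held the one probe set that stood apart from all other members. Its 3 probe sets do not tell one story. The second brightest, with the suffix _x_at, read 10368 and 10033 in E2a-/- MigR1 and 9044 and 8116 in E2a-/- MigR1-Cre. In Lef1F/F MigR1 it read 464 and 647, and in Lef1F/F MigR1-Cre 489 and 581. It was 18.6-fold lower with MigR1 (-4.22 ± 0.15, limma adjusted p = 1.44e-06) and 16.1-fold lower with MigR1-Cre (-4.01 ± 0.15, 2.03e-06). It was called in all 8 fits that left out 1 array.

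The brightest Rps9 probe set, with the suffix _s_at, showed no such difference. It read 16261, 15974, 16386 and 15860 in the E2a-/- arrays and 16322, 15694, 15736 and 15816 in the Lef1F/F arrays. The lines overlapped, and the differences were -0.01 ± 0.06 and -0.03 ± 0.06 (limma adjusted p = 0.955 and 0.831). The dimmest, with the suffix _at, read 528, 456, 472 and 649 in the E2a-/- arrays and 404, 308, 432 and 316 in the Lef1F/F arrays. All Lef1F/F arrays were lower, by -0.48 ± 0.20 and -0.58 ± 0.20, and it did not pass (limma adjusted p = 0.217 and 0.118). In the array maker's naming, _x_at marks a probe set with probes that resemble other sequences, and _s_at one whose probes match several transcripts. Which transcripts the probes of each set match was not analysed here, and the level of Rps9 in the Lef1F/F line is therefore not settled by the array.

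**Figure D4:**
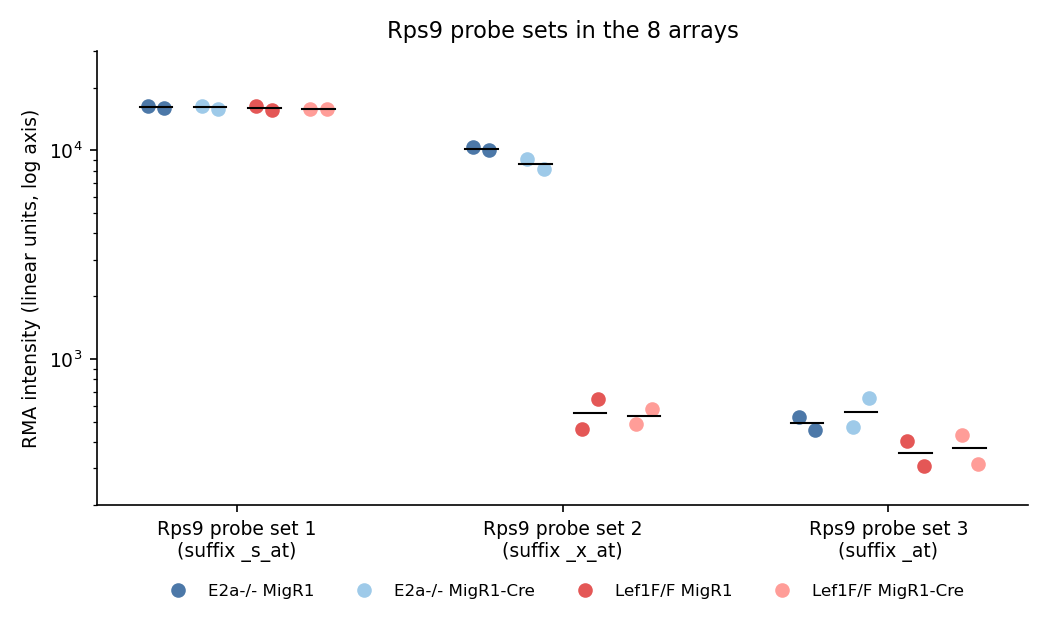
Intensity of the 3 Rps9 probe sets in each array, in linear units on a log axis; points are arrays, horizontal bars group means (n = 2), and colours groups. The _x_at probe set lies between 8116 and 10368 in the 4 E2a-/- arrays and between 464 and 647 in the 4 Lef1F/F arrays, while the _s_at probe set lies between 15694 and 16386 in all 8.

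This probe set was the only member more than 2-fold from the members' median in either comparison. Without it, the median was -0.07 with MigR1 and -0.06 with MigR1-Cre, and 5 and 7 members passed. The small shared shift and the Rps9 probe set were therefore separate in the data. The next largest differences were all under 1 on the log2 scale.

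Other small subunit probe sets passed at low intensity. Rps25, whose protein is needed for some internal ribosome entry sites, had a single probe set. It read 1419, 1264, 1361 and 1495 in the E2a-/- arrays and 1029, 843, 1032 and 792 in the Lef1F/F arrays. There was no overlap, with differences of -0.52 ± 0.14 (limma adjusted p = 0.0543) and -0.66 ± 0.14 (0.0203). Rps10 passed only at its dim probe set, which read 191, 180, 179 and 200 in the E2a-/- arrays and 138, 152, 135 and 153 in the Lef1F/F arrays. It gave -0.36 ± 0.09 (limma adjusted p = 0.0408) and -0.39 ± 0.09 (0.0255). The other 5 probe sets of Rps10, between 8263 and 19574 units, gave averages between -0.10 and -0.03, and none passed. Among paralogues, the dim Rpl3l, known from heart and skeletal muscle, gave -0.09 ± 0.06 and -0.24 ± 0.06, and passed with MigR1-Cre (limma adjusted p = 0.0385). It read 68.7 and 70.3 in E2a-/- MigR1-Cre and 60.6 and 57.2 in Lef1F/F MigR1-Cre, values below the median of all probe sets. Rpl39l and Rps4l were as dim, with differences of -0.06 in both, and of 0.04 and -0.05.

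Rps19, mutated in Diamond-Blackfan anemia, read 14637, 14112, 14862 and 14927 in the E2a-/- arrays and 13701, 12263, 14028 and 12004 in the Lef1F/F arrays (-0.15 ± 0.09 and -0.20 ± 0.09, limma adjusted p = 0.402 and 0.223). Rps14, the gene of the 5q deletion in myelodysplasia, gave -0.11 and -0.12 at one probe set and -0.19 and -0.27 at the other (limma adjusted p = 0.205 and 0.068 for the latter). Rps6, the substrate of S6 kinase, gave -0.14 ± 0.09 and -0.05 ± 0.09 at 1556 units. Rpsa, also known as a laminin receptor, was separate in the other direction at its bright probe set. It read 19244, 19306, 19068 and 19535 in the E2a-/- arrays and 19971, 19879, 19850 and 20048 in the Lef1F/F arrays, a difference of 0.05 ± 0.05 in both comparisons that did not pass.

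Rps20 and Rps24 were higher in the Lef1F/F line at most of their probe sets, and none passed. The 4 probe sets of Rps20 were all higher in the Lef1F/F line, by 0.03 on average at the brightest. The probe set at 229 units read 212, 201, 211 and 180 in the E2a-/- arrays and 233, 291, 231 and 269 in the Lef1F/F arrays (0.34 ± 0.13 and 0.35 ± 0.13, limma adjusted p = 0.157 and 0.125). Rps24 was higher at 5 of its 6 probe sets, and its dim one was not. Its brightest read 19936, 19874, 20220 and 20075 in the E2a-/- arrays and 21763, 21208, 21853 and 20393 in the Lef1F/F arrays (0.11 ± 0.06 and 0.07 ± 0.06). The probe set at 516 units gave 0.63 ± 0.20 and 0.30 ± 0.20 (limma adjusted p = 0.101 and 0.456). Rps24 was the only member gene on chromosome 14. The 454 probe sets of that chromosome that were not dim had a median line difference of 0.42 in both comparisons, and 91.6% of them were above 0 with MigR1, against 46.4% of all such probe sets. The part of this in the Rps24 values was not tested.

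**Figure D5:**
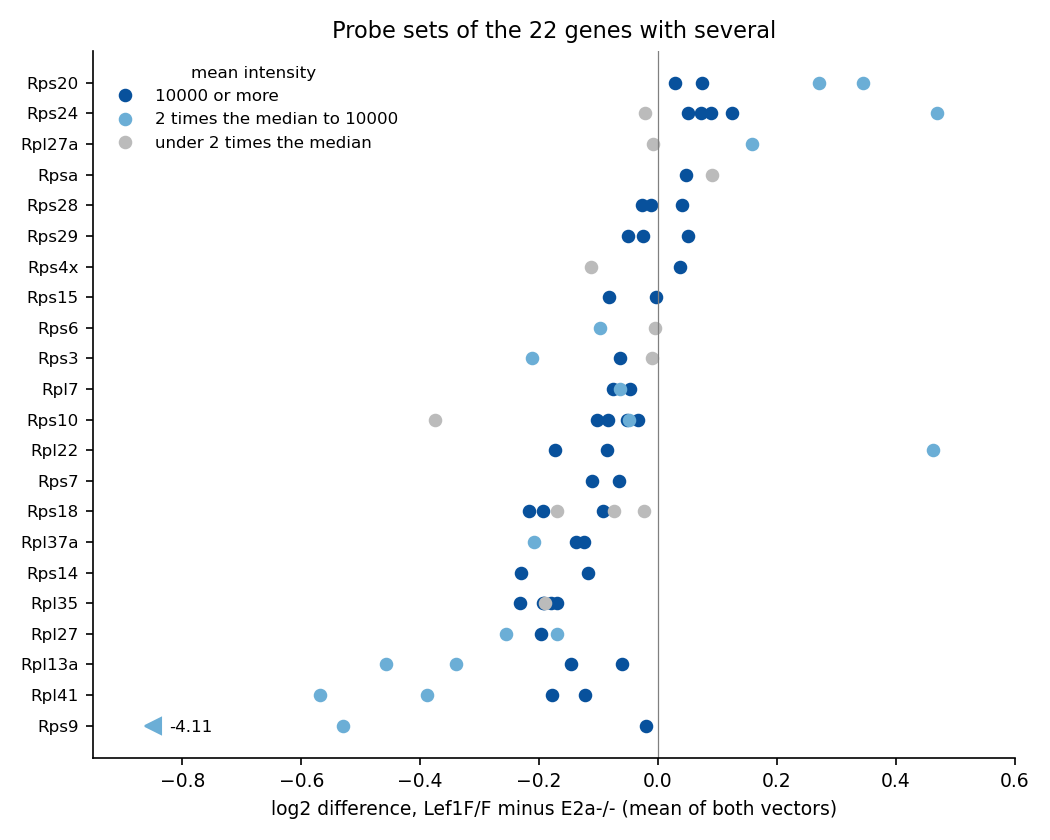
Log2 difference between the lines, averaged over both vectors (x axis), for each probe set of the 22 genes with several; genes are ordered by their median and colours give the range of mean intensity. The arrow marks the Rps9 probe set at -4.11, beyond the axis. Within Rpl13a, Rpl41 and Rps9 the probe sets of at least 10000 units lie nearer 0 than the dimmer ones, and within Rps10 the dim probe set lies farthest from 0.

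Leaving out arrays changed the number of calls. With 1 of the 8 arrays left out, between 2 and 8 members passed with MigR1 and between 2 and 13 with MigR1-Cre, while between 5.03% and 12.0% and between 6.23% and 13.5% of all probe sets did. One member was called higher in 1 of these fits with MigR1 and in 3 with MigR1-Cre. The number with MigR1 fell to 3 without E2a-/- MigR1 array 1, to 2 without E2a-/- MigR1 array 2 and to 2 without Lef1F/F MigR1 array 2. With MigR1-Cre it was 2 and 3 without E2a-/- MigR1-Cre array 1 and 2, and 13 and 3 without Lef1F/F MigR1-Cre array 1 and 2. Only the Rps9 probe set was called in every such fit of both comparisons; the dimmer Rpl13a probe set was called in 8 and 6 of 8, and the dimmest of Rpl41 in 5 and 8. The dim Rps10 probe set was called in 2 and 3 of 8, and Rpl3l with MigR1-Cre in 3 of 8.

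Genes around the ribosome were each taken at the probe set with the highest mean intensity, where 1 of the 45 member genes passed with MigR1 (Rpl14) and 2 with MigR1-Cre (Rpl3l and Rps25), all lower, and the median was -0.06 in both. Over all 18193 genes the medians were -0.005 and 0.001, with 1588 higher and 1071 lower with MigR1 and 1567 higher and 1359 lower with MigR1-Cre. The mitochondrial ribosomal proteins, which form a separate ribosome, were lower by more than the member genes at their brightest probe sets. Of 76 genes, 25 passed as lower and 1 as higher (Mrpl52, 0.33) with MigR1, and 32 and 0 with MigR1-Cre. The medians were -0.26 and -0.27. Mean intensities of these 76 lay between 365 and 3702 units. The 23 member probe sets neither dim nor of at least 10000 units had nearly the same medians, -0.22 and -0.23. The part of intensity in the gap to the brightest member probe sets was not tested. Mrpl17 had the largest difference (-0.79 ± 0.09, limma adjusted p = 0.00114) and Mrps33 the next (-0.60 ± 0.14, 0.0342) with MigR1, where Mrpl46, Mrpl38 and Mrps10 also passed with -0.55, -0.51 and -0.47. Of 26 ribosome assembly genes, 9 passed as lower and 1 as higher with MigR1, and 8 and 1 with MigR1-Cre, with medians of -0.21 and -0.20. Among them Bysl and Nop56, which act in small subunit processing and in the nucleolar snoRNP, gave -0.42 ± 0.05 (limma adjusted p = 0.00176) and -0.41 ± 0.06 (0.00334), and Grwd1, a partner of Rpl3, gave -0.45 ± 0.10 (0.0212). Heatr3, which helps carry Rpl5 to the nucleus, was the one higher (1.37 ± 0.12, limma adjusted p = 0.000245).

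Of 15 translation factors with TOP transcripts, Eef1d alone passed (-0.33 ± 0.06, limma adjusted p = 0.0079; -0.34 with MigR1-Cre, 0.00587), and the medians were -0.06 and -0.03. Of 16 genes of mTORC1 and TOP control, 3 passed as lower with MigR1: Eif4ebp1, an inhibitor of cap-dependent translation (-1.09 ± 0.10, limma adjusted p = 0.000305), Mlst8 (-0.33 ± 0.08, 0.0401) and Larp4 (-0.24 ± 0.06, 0.0464). With MigR1-Cre only Eif4ebp1 passed (-1.23 ± 0.10, limma adjusted p = 0.00018), and the medians of the list were -0.14 and -0.20. Of 4 ribosomal proteins and paralogues outside the rule, with medians of -0.19 in both, Rpl7l1 passed in both (-0.23 and -0.24, limma adjusted p = 0.0406 and 0.0339), while Rpl22l1, the paralogue of Rpl22, gave -0.004 ± 0.15 and 0.03 ± 0.15. Of 4 Myc and Mdm2 pathway genes, Cdkn1a passed with MigR1 (-0.82 ± 0.14, limma adjusted p = 0.00666) and not with MigR1-Cre (-0.27 ± 0.14, 0.302); Myc gave -0.002 and 0.002, and the medians of the 4 were -0.16 and -0.07. No gene of these lists passed in the comparison of MigR1-Cre with MigR1 in either line. Mycn averaged 12183 in E2a-/- MigR1 and 6555 in E2a-/- MigR1-Cre (-0.89 ± 0.14). It averaged 10183 in Lef1F/F MigR1 and 6417 in Lef1F/F MigR1-Cre (-0.68 ± 0.14, limma adjusted p = 0.238). Cdkn1a gave 0.68 ± 0.14 (limma adjusted p = 0.237) in the Lef1F/F line and 0.13 ± 0.14 in the E2a-/- line. Myc gave 0.07 in both lines, and Mdm2 -0.01 in the Lef1F/F and 0.04 in the E2a-/- line.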

How the data were processed

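Total RNA of GFP+ cells was labelled with a 3' kit and hybridised to 8 arrays. The authors normalised the scans with RMA, and the deposited table holds linear intensity per probe set; no detection call was used. Log2 was taken with no offset. limma 3.58.1 in R 4.3.3 fitted 4 group means to all 45037 probe sets (4 residual degrees of freedom), and two-sided p-values were adjusted by Benjamini-Hochberg over all of them within a comparison, threshold 0.05. Errors are moderated standard errors; arrays, 2 a group, limit the precision. Group medians of members carry no test.

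Symbols came from the platform annotation (34945 probe sets with 1 symbol, 932 with several, 9160 with none) and sequences from RefSeq. The members and lists were chosen with earlier results of these data known. Named members were those called or, under 4 calls, the 4 with the smallest p, genes picked for known roles, probe sets over 2-fold from the members' median and the 3 brightest and dimmest; Rpl4, Rpl12, Rpl27, Rpl35, Rpl37a, Rps20 and Rps24 were chosen after their values were seen. In other lists up to 4 genes past the threshold were named. Mrpl52, Mrps33, Myc and Mycn, members of those lists, were named outside this rule after their values were seen. Tested on simulated data of 45037 probe sets, the fit recovered 12.4% of 1.25-fold, 61.2% of 1.5-fold and 91.6% of 2-fold line differences. For MigR1-Cre effects in the Lef1F/F line it recovered 12.4%, 66.4% and 88.8%. The simulations changed far fewer probe sets than passed between the lines, so recovery of the real line differences may be another. The alternatives were other moderation, a filter at the 40th percentile, only the arrays compared, other sets of members, repeated quantile normalisation, a replicate block and each array left out.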

Additional observations from a re-analysis of the deposited data

How the results depend on the processing

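The comparisons of MigR1-Cre with MigR1 gave 0 called members under every alternative run. With each array left out, the members' median ranged from -0.0232 to 0.0310 in the Lef1F/F line and from -0.0174 to 0.0342 for the difference of effects. Between the lines no median turned its direction. Repeated quantile normalisation gave smaller medians of -0.0507 and -0.0529, with 72.2% and 68.0% of members below 0. Without it they were -0.0689 and -0.0651, with 79.4% and 74.2% below 0. Called members numbered 6 (MigR1) and 8 (MigR1-Cre), and with each array left out from 2 to 8 and from 2 to 13. Without probe sets of the suffixes _x_at and _s_at they were 3 and 5 of 56 members (10.1% and 11.4% of all). With 1 probe set, the brightest, a gene, they were 2 and 4 of 45 (17.9% and 19.7% of all). Calls were then made over the 18193 genes alone, while the 1 and 2 of 45 given earlier came from the main fit. With only the arrays compared, 5 of 97 passed in MigR1-Cre, and 4054 of all 45037 probe sets did. Chosen after seeing the data, probe sets of several symbols were added, and 10 and 14 of 207 members passed (10.7% and 12.0% of all). Also chosen then, members of at least 10000 units gave 0 and 0. In each of these settings the share of members called was below that of the whole table. The median of members from 181 to 10000 units was -0.2182 and -0.2278.

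Arrays share no replicate number in the labels. With the order of the Lef1F/F arrays as a replicate block, 24 members passed with MigR1 (20 lower, 4 higher) and 28 with MigR1-Cre (24 lower, 4 higher), which is 24.7% and 28.9% of the members, while 9595 and 10554 of all probe sets did (21.3% and 23.4%), so the share of members called was then above that of the whole table. The pairing rests on the data alone and not on the design. For single probe sets, leaving out 1 array ended 10 of 14 calls in at least 1 fit; the 4 kept in all fits were both of the Rps9 probe set, that of the dimmer Rpl13a probe set with MigR1 and that of the dimmest Rpl41 probe set with MigR1-Cre.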
